A study of Mus musculus with 4 samples.

Results

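Distal PHF2 peaks were the regions of the deposited PHF2 peak list whose centre lay more than 1 kb from every transcript start of a protein-coding gene, and they numbered 397 of 5992 peaks (6.63%). Starts were those of protein-coding transcripts in the GENCODE M21 annotation on mm10. The chromatin came from neural stem cells of wild-type C57BL/6J mouse embryos at E12.5, kept in culture with EGF at 20 ng/ml and FGF at 10 ng/ml. The study held 4 samples in 4 groups of 1: a PHF2 immunoprecipitation (antibody D45A2) with its input, and an H3K9me2 immunoprecipitation (antibody ab1220) with its input. All 4 shared genotype, strain and stage, and no treatment or mutation is labelled. Peak lists hold no expression values and no read totals, so the cell type was taken from the labels and the sequencing depth is unknown. Each list came from a single immunoprecipitation, so the variation from culture to culture is not known and no test between conditions was made. Intervals below are 95% intervals, cover counting error only and describe these lists.

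PHF2 is a histone demethylase of the Jumonji family whose plant homeodomain finger binds histone H3 trimethylated at lysine 4, a mark of active transcription starts, and whose best known substrate is H3K9me2. H3K9me2, histone H3 dimethylated at lysine 9, is a mark of silent chromatin laid down mainly by the G9a and GLP methyltransferases. Neural stem cells of the early embryonic brain divide in response to growth factors and later give rise to neurons and glia. CpG islands are stretches of unmethylated, CpG-rich DNA that cover the starts of most broadly expressed genes.

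The central 200 bp of 8 distal peaks are given as examples of the sequence under them. Shown are the highest-scoring peak of each of the 6 annotation classes described below, the peak over the Mir9-1 gene and the only distal peak that overlapped an H3K9me2 region. Windows that touched a UTR were passed over for the next peak, and Mir9-1 was added after its values were seen. Each is named by the nearest coding gene of its peak, or by a noncoding gene under the peak, and is read from the plus strand of mm10, with every CpG in capitals.
Bahcc1, noncoding gene start, chr11:120235331-120235530: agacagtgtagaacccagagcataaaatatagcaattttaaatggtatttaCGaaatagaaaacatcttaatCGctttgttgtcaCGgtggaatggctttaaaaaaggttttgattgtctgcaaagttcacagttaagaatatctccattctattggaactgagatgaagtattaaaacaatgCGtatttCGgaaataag
Dusp6, noncoding transcript start, chr10:99265358-99265557: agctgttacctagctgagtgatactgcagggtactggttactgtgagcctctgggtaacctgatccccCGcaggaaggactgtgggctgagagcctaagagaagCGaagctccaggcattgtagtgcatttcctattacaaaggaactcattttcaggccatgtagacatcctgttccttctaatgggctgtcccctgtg
Irf2bpl, coding exon, chr12:86883235-86883434: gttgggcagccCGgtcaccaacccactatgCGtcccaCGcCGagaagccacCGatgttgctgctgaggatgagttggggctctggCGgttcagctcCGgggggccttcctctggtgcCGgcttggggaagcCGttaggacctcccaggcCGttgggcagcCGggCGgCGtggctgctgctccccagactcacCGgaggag
Trib2, coding intron, chr12:15815002-15815201: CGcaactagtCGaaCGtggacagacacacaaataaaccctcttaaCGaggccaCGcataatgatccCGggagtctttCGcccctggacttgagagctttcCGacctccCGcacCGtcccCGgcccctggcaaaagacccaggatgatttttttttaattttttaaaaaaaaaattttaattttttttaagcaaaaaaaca
Malat1, noncoding gene body, chr19:5800088-5800287: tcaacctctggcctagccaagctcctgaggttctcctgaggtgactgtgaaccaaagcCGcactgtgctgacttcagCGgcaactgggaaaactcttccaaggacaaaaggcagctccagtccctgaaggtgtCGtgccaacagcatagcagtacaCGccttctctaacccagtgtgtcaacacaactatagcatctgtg
Tln2, intergenic, chr9:67633384-67633583: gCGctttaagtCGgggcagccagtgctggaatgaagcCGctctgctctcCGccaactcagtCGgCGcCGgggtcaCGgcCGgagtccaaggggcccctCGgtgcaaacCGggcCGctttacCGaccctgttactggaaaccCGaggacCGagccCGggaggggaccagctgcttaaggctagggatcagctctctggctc
Mir9-1 peak, window beside the gene, chr3:88215765-88215964: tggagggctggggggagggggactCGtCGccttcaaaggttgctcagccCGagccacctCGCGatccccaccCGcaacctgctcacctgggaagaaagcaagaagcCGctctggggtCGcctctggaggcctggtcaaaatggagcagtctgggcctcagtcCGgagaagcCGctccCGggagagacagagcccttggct
4931414P19Rik, coding intron, peak met by H3K9me2 at its edge outside this window, chr14:54603200-54603399: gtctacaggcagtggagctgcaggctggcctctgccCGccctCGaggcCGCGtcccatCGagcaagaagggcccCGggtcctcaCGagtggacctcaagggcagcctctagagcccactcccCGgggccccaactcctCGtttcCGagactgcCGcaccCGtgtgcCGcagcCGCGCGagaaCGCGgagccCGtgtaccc
In these windows the CpG count did not follow the score. The window of Tln2 held 16 CpG and that of Irf2bpl 14, whereas those of Dusp6 and Malat1, whose peaks shared a score of 3100, held 2 and 4. The window of 4931414P19Rik, with the low score of 161.21, held 19.

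The distal peaks were divided by how far they extended. In 135 peaks the centre was distal but the peak itself reached within 1 kb of a coding start, and these are called promoter-reaching. The other 262 peaks had no base within 1 kb of a coding start and are called detached. A long peak reaches a start more easily than a short one, so the difference in length between these sets is built into the division and is given as a description. Promoter-reaching peaks had a median length of 2651 bp (interval 2128 to 2977), against 1233 bp (1180 to 1285) for detached peaks and 1304 bp (1290 to 1316) for the 5595 PHF2 peaks centred within 1 kb of a coding start, called promoter peaks. The score is 1 value per peak from the authors' peak caller, on a scale not given in the sources used here. It rose with length within the distal peaks (Spearman 0.90 over 397 peaks) and within promoter peaks (0.83 over 5595). The higher scores of promoter-reaching peaks are therefore not separate from their length, and scores were not compared at equal length. The median score was 693.9 (interval 538 to 896) in promoter-reaching peaks, 196.4 (180 to 215) in detached peaks and 228.6 (224 to 233) in promoter peaks.

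**Figure D1:**
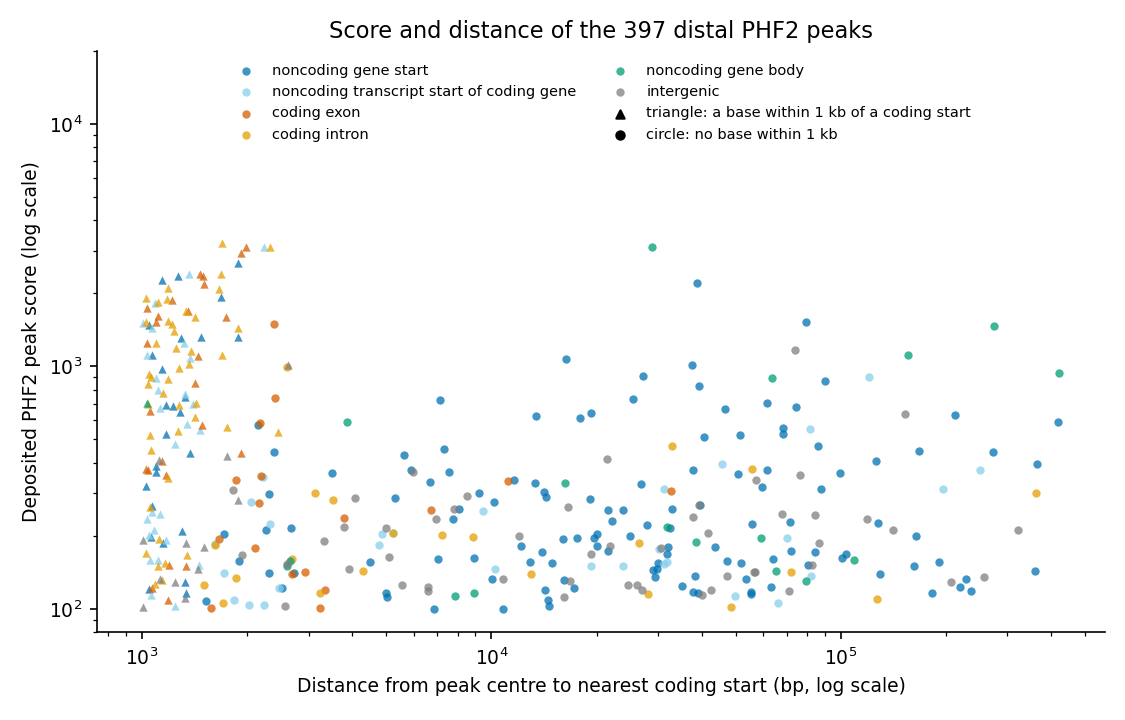
Deposited score of each of the 397 distal PHF2 peaks (vertical axis, log scale) against the distance from its centre to the nearest coding start in bp (horizontal axis, log scale), with colours for the annotation at the centre. Promoter-reaching peaks (triangles) crowd at the left edge and hold most of the high scores, while the Malat1 peak, at 3100 and 28769 bp, has the highest score of the detached peaks (circles).

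Distances of the centre from the nearest coding start ran from 1006 to 421351 bp with a median of 5218 bp. Of the 397 peaks, 114 lay between 1000 and 1500 bp and 171 (43.1%) lay over 10 kb away. Of the latter, 94 lay at 10 to 50 kb and 33 over 100 kb. The 1 kb limit divides a continuous range of distances. Just beyond it lay distal peaks at Pik3ca (1006 bp, score 102.1), Ccnd1 (1006 bp, 1514.15) and Mex3c (1008 bp, 192.16), and just within it lay promoter peaks at Mtg2 (998 bp, 189.99), Nlgn1 (997 bp, 325.72) and Fem1c (991 bp, 864.41). Detached peaks had a median distance of 21681 bp (interval 16291 to 29331), and promoter-reaching peaks one of 1189 bp. Of promoter-reaching peaks 82.2% lay downstream of the start, as did 78.4% of promoter peaks, against 51.5% of detached peaks (interval 45.5 to 57.5).

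The 5 PHF2 peaks with a score of 3100 or more, of 5992 in the list, were all distal. They covered Spry2 (3226.07, 5400 bp long), Spry4, Dusp6, Olig2 and the noncoding gene Malat1, the last 4 of which shared the value 3100. Whether 3100 is a ceiling of the peak caller was not tested, so the order of these peaks is uncertain. Spry2 and Spry4 encode Sprouty inhibitors of receptor tyrosine kinase signalling, and Dusp6 encodes the phosphatase that inactivates ERK. Olig2 is a basic helix-loop-helix factor of ventral neural progenitors, and its peak was 6200 bp long. Sox4 (2931.49), Sox11 (2368.65) and Sox21 (2271.30), of the SOX family of DNA-binding proteins, followed, together with Pou3f1 (2176.65), a POU factor, and Rfx4 (2074.87), a winged-helix factor of the developing brain. Lfng (2104.21), a glycosyltransferase that tunes Notch receptors, Trib2 (2413.45), a pseudokinase, and Ckb (2413.96), brain creatine kinase, were among the rest. Of the 20 highest-scoring distal peaks 18 were promoter-reaching and spread away from a coding start, and the other 2, Malat1 and the Mir9-1 locus (2216.40), were detached.

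Genes near distal peaks were then read against 6 gene lists. In all, 356 of 21670 protein-coding genes (1.64%) were the nearest coding gene of a distal peak. Among 35 neural progenitor transcription factors 14 were (40.0%), 9 of them through a detached peak. Olig2, Sox9 (1839.15), Olig1 (1609.26), Id3 (1442.43) and Nfib (1438.99) had the highest scores among those 14. Detached peaks lay near Pou3f3, Sox2, Sox1, Nr2f1, Sox3, Nfia and Hes1, whose highest scores ran from 108.53 at Hes1 to 612.06 at Pou3f3. Among 26 receptor tyrosine kinase feedback genes 8 were nearest to a distal peak (30.8%), namely Spry2, Spry4, Dusp6, Lrig1 (1534.57), Dusp4 (1400.96), Spry1 (1115.36), Erbb4 (204.04) and Spred2 (146.69). Lrig1 promotes loss of ERBB receptors and Dusp4 is another MAP kinase phosphatase. Of 24 growth and immediate early factors 6 were counted (25.0%), with Ccnd1 (1514.15), Egr1 (1499.59) and Ccnd2 (1480.69) highest. The lists of 25 neuronal differentiation genes, 20 Notch pathway genes and 24 genes of H3K9 methylation had 2 (Sox4 and Sox11, 8.0%), 1 (Lfng, 5.00%) and 1 (Prdm2, 4.17%). All 6 shares were above the 1.64% of all coding genes, the last 3 on 1 or 2 genes each, and nothing further is read from lists picked with earlier results known. The nearest gene is a label of position, and Myc (51558 bp from the peak), Jun (109230 bp) and Klf4 (118833 bp) were nearest across long distances.

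By annotation at the centre, the start of a noncoding gene was the most frequent class of distal peaks. It held 152 of 397 peaks (38.3%, interval 33.6 to 43.2), whereas such windows, 1 kb either side of a noncoding start, cover 2.42% of the genome over 1 kb from coding starts. Detached peaks held it most often, in 126 of 262 (48.1%, interval 42.1 to 54.1), against 26 of 135 promoter-reaching peaks (19.3%, 13.5 to 26.7). A noncoding transcript of a coding gene started within 1 kb of a further 56 centres (14.1%, 1.30% of the genome). Exons of coding genes held 42 (10.6%, 2.23% of the genome), of which 29 centres lay in coding sequence and 13 in UTR. Introns of coding genes held 66 (16.6%) although they make up 35.4% of that genome, and intergenic DNA held 63 (15.9%) against 52.5%. Bodies of noncoding genes held the other 18 (4.53%, 6.20% of the genome). Among detached peaks introns fell to 8.40% (interval 5.61 to 12.4), and among promoter-reaching peaks they were the largest class at 32.6% (25.3 to 40.9).

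**Figure D2:**
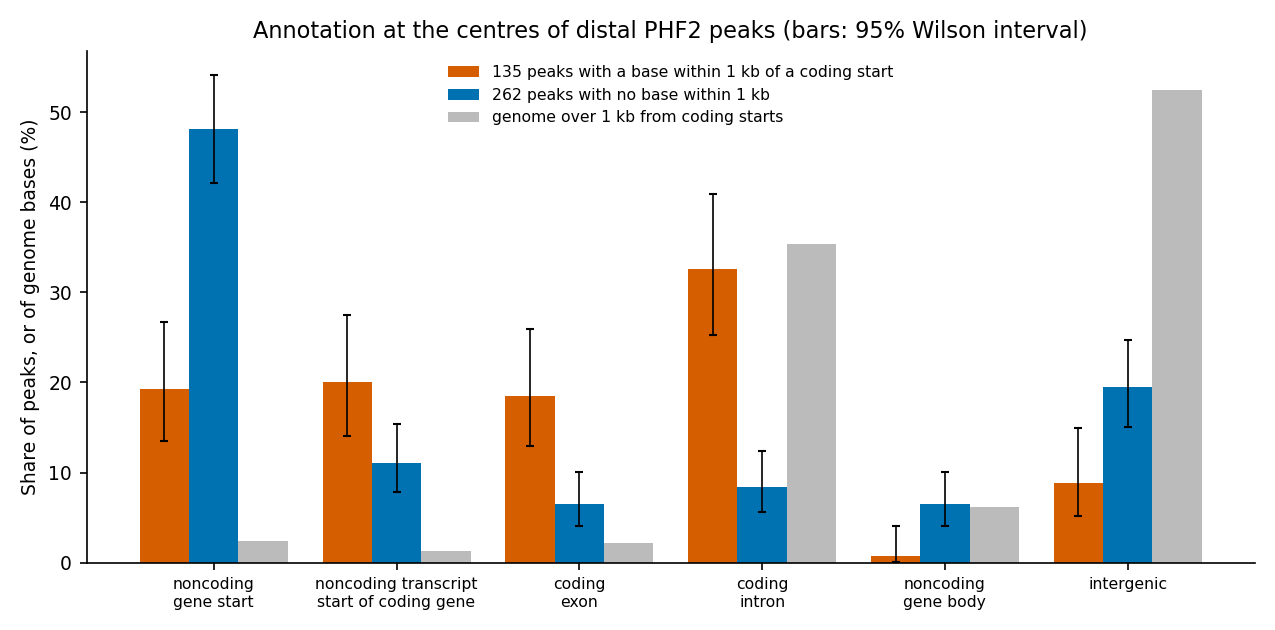
Share in percent of the 135 promoter-reaching peaks, of the 262 detached peaks and of genome bases over 1 kb from coding starts (vertical axis) in each of 6 annotation classes (horizontal axis), with 95% Wilson intervals on the peak shares. Noncoding gene starts hold 48.1% of detached peaks and 2.42% of the genome, and intergenic DNA holds 19.5% and 52.5%.

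The 152 noncoding starts were mainly of long RNAs: 53 lincRNA, 34 processed transcripts, 17 antisense RNAs and 16 genes of the TEC category, which await experimental proof. Smaller RNAs gave 8 miRNA, 7 snRNA, 7 snoRNA and 1 scaRNA start as the nearest. Of these 152 peaks 98 lay over 10 kb from any coding start and 29 within 2 kb. Of the 5 farthest peaks 4 lay at noncoding RNA genes. The 2 farthest peaks, 421351 and 418662 bp from Ubash3b, lay 22 bp apart over Mir125b-1 (935.11) and at the start of 3110039I08Rik (589.10). A peak at the start of 2610035D17Rik (396.30) lay 364171 bp from Slc39a11, 1 in an intron of Ptprn2 (299.84) lay 362424 bp from the start of Rapgef5, and 1 at Gm37136 (143.63) lay 360361 bp from a coding start of Naaladl2, although a RefSeq mRNA start of Naaladl2 lay 166 bp from its centre.

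Some known long noncoding RNAs had detached peaks with high scores, and most of those below were picked after their values were seen. Others had low scores, such as Jpx (173.43) and Dancr (200.35). The median of all detached peaks at noncoding gene starts was 212.6. Malat1, an abundant nuclear RNA, was covered by a peak of 6347 bp on chromosome 19 (5797015 to 5803361) in its body, without a coding gene under it. C130071C03Rik, the host of Mir9-2, carried 3 detached peaks with scores of 1519.38, 525.75 and 469.85, and its nearest coding gene Mef2c started 68513 to 86117 bp away. Gm4258 (1460.22) lay 275492 bp from Ptprc. Peaks also lay at 1810026B05Rik (1073.80), 2810410L24Rik (1015.03), Dleu2 (682.51 and 509.03), Pantr2 beside Pou3f3 (612.06), Pvt1 beside Myc (523.30) and Mir99ahg (445.07). Sox2ot, the transcript that surrounds Sox2, had a peak of 587.34 in its body, and Sox1ot 1 of 277.13 at its start. Pou3f3 had the most distal peaks of any gene, 4, and 34 genes had 2 or more. Such peaks share a neighbourhood and are not independent regions.

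MicroRNA genes lay under 12 distal peaks, all detached (4.58% of 262, interval 2.64 to 7.83), and under 61 of 5595 promoter peaks (1.09%, 0.850 to 1.40). The difference for detached peaks was 3.49 percentage points (interval 1.52 to 6.75). This and the next counts were chosen after earlier results were seen. All 3 genes of miR-9, the microRNA that represses progenitor genes during neurogenesis, were covered: Mir9-1 (2216.40), Mir9-3 (828.87) and Mir9-2 (469.85). The nearest coding starts were 38844, 39222 and 86117 bp away. Mir125b-1 (935.11) and Mirlet7i (869.32), of families that act in developmental timing, scored between Mir9-1 and Mir9-3, and Mir193a had 358.60. The peak over Mir9-1 also covered Mir3093 and Gm25641, which runs antisense to it and gives miR-9b. RefSeq (GRCm38.p6) gave mature sequences for 13 of the 14 microRNA genes, and a choice of 6 follows with the seed, bases 2 to 8, in capitals.
miR-9-5p, from Mir9-1, Mir9-2 and Mir9-3: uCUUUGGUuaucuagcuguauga
miR-9-3p, from Mir9-1, Mir9-2 and Mir9-3: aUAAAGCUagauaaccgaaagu
miR-9b-5p, from Gm25641: uUCGGUUAucuagcuuuauga
let-7i-5p, from Mirlet7i: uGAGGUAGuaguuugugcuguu
miR-125b-5p, from Mir125b-1: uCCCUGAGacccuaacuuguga
miR-193a-3p, from Mir193a: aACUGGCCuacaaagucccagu
The 3 Mir9 genes share both mature sequences, so 3 detached peaks on chromosomes 3, 7 and 13 sit over sources of the same 2 microRNAs. The other seeds shown differ from that of miR-9-5p and from each other.

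Small nucleolar RNA genes and their hosts were a further group. A snoRNA or scaRNA gene lay under 16 detached peaks (6.11%, interval 3.79 to 9.69) and 27 promoter peaks (0.483%, 0.332 to 0.701), a difference of 5.62 percentage points (3.30 to 9.21). Most such RNAs guide chemical modification of ribosomal and spliceosomal RNA, and many are cut from introns of host transcripts. Hosts with a peak included 2410006H16Rik with Snord49a and Snord49b (914.34), Snhg5 with Snord50b (736.11), Snhg8 with Snora24 (709.21), Snhg6 with Snord87 (640.85), Snhg15 with Snora9 (457.44) and Snhg12 with Snora16a (431.21). Genes of the snRNA and misc_RNA types lay under 13 detached peaks (4.96%, 2.92 to 8.30), 1 promoter-reaching peak and 13 promoter peaks (0.232%, 0.136 to 0.397). Several misc_RNA entries lay under peaks that also overlapped a long noncoding RNA gene. They were Gm27694 with Malat1, Gm27611 with Sox2ot, Gm27913 with Pvt1, Gm27972 with Dleu2 and Gm27875 with Jpx. This group therefore shares peaks with the long RNAs. It also held Rnu11 (156.0), of the minor spliceosome, and Terc (117.23), the RNA template of telomerase. All 16 snoRNA peaks belong to the class of noncoding gene starts already counted above. They include those at Rnu3b3 (173.56), Rnu3b1 (131.73) and Rnu3b4 (123.94), which lie together beside Tex14. These genes and Rnu2-10 (100.02), of the snRNA type, are near-identical copies of U3 and U2 genes. Which copy the reads came from is uncertain, and the shares of both groups include such peaks.

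**Figure D3:**
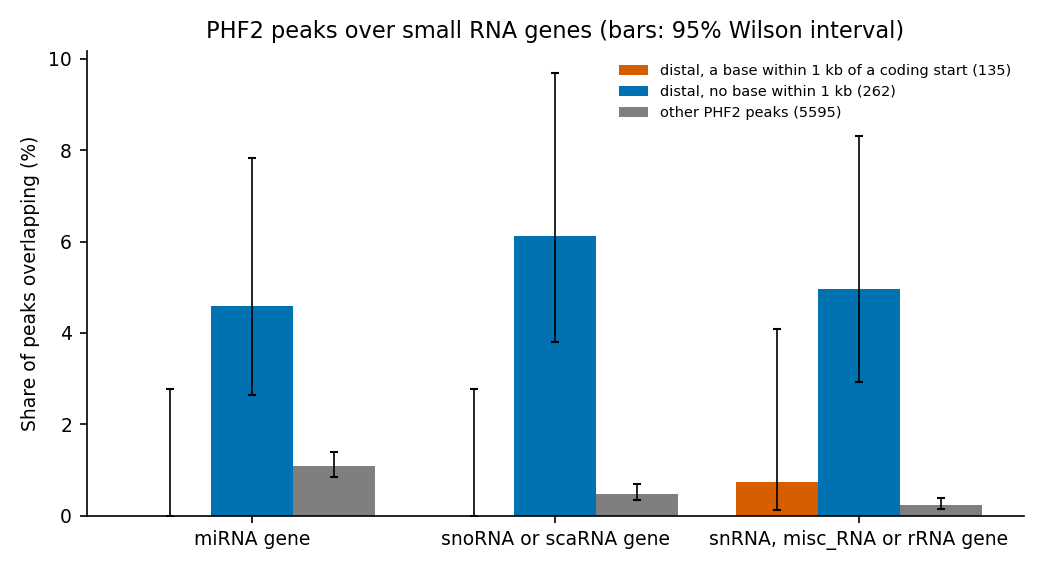
Share in percent of promoter-reaching, detached and promoter peaks (vertical axis) that overlap a gene of given types (horizontal axis), with 95% Wilson intervals. The types are miRNA, snoRNA or scaRNA, and snRNA, misc_RNA or rRNA, and some misc_RNA entries lie under peaks of long noncoding RNAs. Detached peaks reach 4.58%, 6.11% and 4.96%, while promoter peaks stay at 1.09%, 0.483% and 0.232%.

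Detached peaks inside coding genes were fewer than those at noncoding gene starts. Of 17 such peaks in exons and 22 in introns, the highest were an exon peak of Zfp608 (1492.29), an intron peak of Sall1 (990.33), a zinc finger transcription factor, and an exon peak of Hist1h1d (741.63), a linker histone gene of a repeated family whose reads may be shared with its copies, and with a curated RefSeq mRNA start 639 bp away. Another PHF2 peak lay 81 bp from that of Zfp608 and 261 bp from that of Sall1. Sox1 (585.45) and Pou3f3 (351.61 and 237.32) had exon peaks as well. Prdm2, of the family of PR-domain methyltransferases, had an intron peak of 471.18 at 32811 bp from its coding starts, 104 bp from a RefSeq mRNA start. In the intergenic class, Tln2 led with 1173.02 at 73781 bp, and a RefSeq mRNA start lay 490 bp from its centre. Tnrc18 (1015.25) and Arid2 (428.84) had intergenic promoter-reaching peaks, and the peak of 414.16 at 21441 bp from Tcf12 had no start of either kind within 1 kb. Among detached peaks the median score was 171.9 (interval 125 to 280) in introns, 181.1 (147 to 216) in intergenic DNA, 212.6 (180 to 259) at noncoding gene starts and 255.1 (142 to 341) in exons, and these intervals overlapped. Over all distal peaks, with the promoter-reaching ones, it was 539.9 in introns and 391.9 in exons.

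Distal peaks were rich in CpG, close to promoter peaks and far from their surroundings. CpG observed/expected is the count of CpG over that predicted from the C and G of the same sequence. Its median was 0.694 (interval 0.675 to 0.713) in distal peaks and 0.778 (0.775 to 0.782) in promoter peaks, against 0.223 (0.211 to 0.234) in windows of the same length 5 kb to either side. Only 9 of the 397 peaks, all detached, had a lower value than their own flanks. GC content was 56.0% in distal peaks, 59.8% in promoter peaks and 44.6% in flanks. A CpG-island-like stretch (200 bp with GC of 50% and observed/expected of 0.6) was found in 94.5% of distal peaks (interval 91.8 to 96.3) and in 99.4% of promoter peaks. Under stricter limits (500 bp, 55%, 0.65) the shares were 79.3% and 96.6%, and detached peaks had 73.3% (67.6 to 78.3). By class the median was highest in exons (0.791), followed by noncoding gene starts (0.705), noncoding transcript starts (0.691), intergenic DNA (0.686), noncoding gene bodies (0.682) and introns (0.656). The intervals of exons (0.755 to 0.826) and introns (0.590 to 0.689) did not meet, and those of intergenic DNA (0.639 to 0.716) and noncoding starts (0.668 to 0.741) overlapped.

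**Figure D4:**
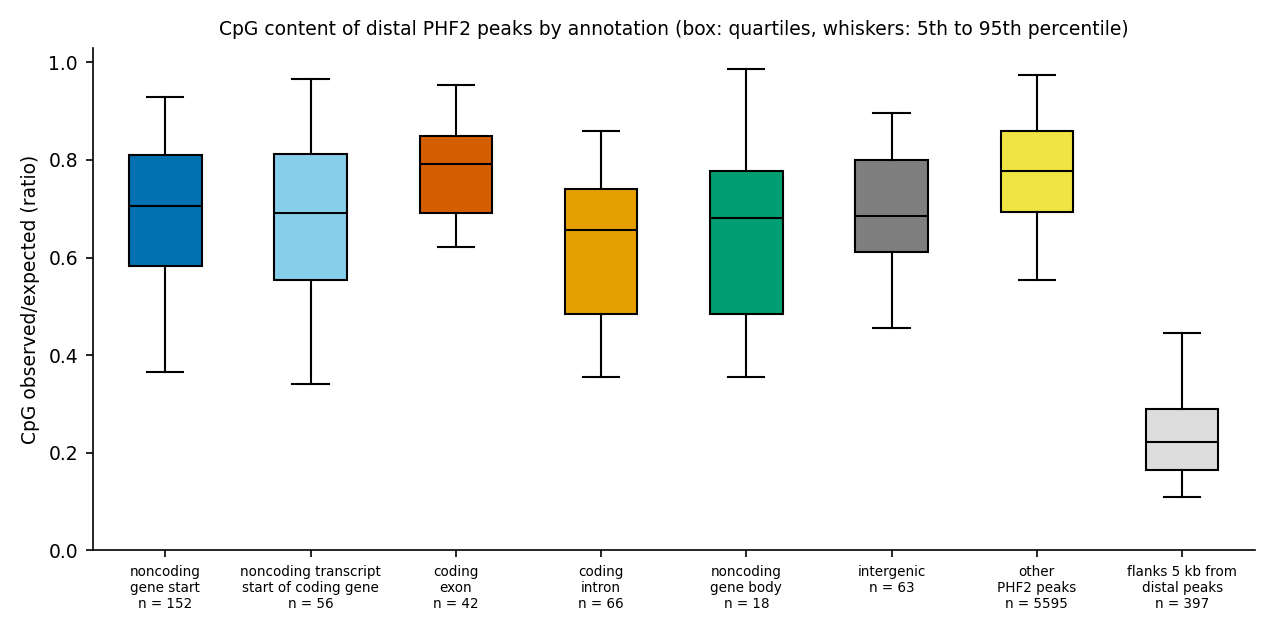
CpG observed/expected (vertical axis, ratio) of distal PHF2 peaks in 6 annotation classes, of promoter peaks (labelled other PHF2 peaks) and of flanks 5 kb from distal peaks; boxes are quartiles with the median and whiskers run from the 5th to the 95th percentile. With promoter-reaching peaks included, all 6 class medians lie between 0.656 and 0.791, against 0.778 in promoter peaks and 0.223 in flanks. Detached intron peaks alone, not drawn, have 0.572.

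CpG-poor members were a minority with their own places. Of the 397 peaks 37 (9.32%, interval 6.84 to 12.6) had an observed/expected of 0.4 or less, 30 of them detached, against 1.13% of promoter peaks (0.881 to 1.44). Among the lowest were a peak 2643 bp from Fam181b (0.115, score 158.24) and an intron peak of Wasf2 (0.175, score 134.33), which had another PHF2 peak 18 and 79 bp away. Low CpG content was also found at high scores, in Malat1 (0.371), Gm4258 (0.355) and the Mir125b-1 peak (0.377). At the other end stood Mirlet7i (1.07), a peak in Gm12446 near Foxe1 (1.06) and the exon peak of Sox1 (1.05). Interspersed repeats and low-complexity sequence masked in the genome made up a median of 10.2% of distal peaks, 7.15% of promoter peaks and 22.7% of flanks.

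Short strings of 12 transcription factor motifs were counted on both strands of the central 200 bp. The SOX string AACAANG occurred in 8.31% of distal peaks (interval 5.98 to 11.4), 4.74% of promoter peaks (4.21 to 5.32) and 10.8% of flanks. The TATA string TATAAA occurred in 5.04% (3.28 to 7.65), 1.50% (1.21 to 1.85) and 13.4%. For the proneural E-box CAGCTG the shares were 11.1%, 9.63% and 8.06%, with intervals that overlapped, and for the ETS string CCGGAAGT they were 1.01% (0.392 to 2.56), 2.59% (2.21 to 3.04) and 0.126%. Both AT-rich strings were more frequent in distal than in promoter peaks and most frequent in flanks, and GC content fell in the same order (59.8%, 56.0% and 44.6%), whose part in this was not tested. A match here is a description of letters and not a binding site.

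Distal peaks often stood beside other PHF2 peaks. Another peak lay within 1 kb of the edges of 64 of 397 (16.1%, interval 12.8 to 20.1), against 3.54% of promoter peaks (3.09 to 4.06), a difference of 12.6 percentage points (9.25 to 16.5). In 40 of the 64 a neighbour was a promoter peak, and in 24 only distal peaks were near. A peak beside a promoter peak is often itself centred over 1 kb from the start, and so counts as distal. The difference therefore follows in part from the definition of distal peaks and is given as a description. Gaps could be short, 36 bp at Spry2, 177 bp at Olig2 and 22 bp at Mir125b-1, and whether such neighbours are parts of a single enriched region was not tested. The nearest coding gene had another PHF2 peak centred within 1 kb of a start for 133 of 262 detached peaks (50.8%, 44.7 to 56.8). Of all protein-coding genes 28.4% had a PHF2 peak there. The first is a share of peaks, where a gene near several peaks counts more than once, and the second a share of genes. They are therefore not like for like. In 19 of the 262 a promoter peak lay within 1 kb of the edges. For promoter-reaching peaks the share with another peak at a start was 20.0% (14.1 to 27.5). Such a peak itself reaches within 1 kb of a start, which leaves less room there for another. Its share therefore follows in part from the division and is not comparable with the others. Across chromosomes the distal share of PHF2 peaks ran from 4.76% to 10.7%.

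H3K9me2 regions were sparse at the centres of distal peaks, and their density approached the genome level with distance. Of the 397 peaks 1 overlapped an H3K9me2 region (0.252%, interval 0.0445 to 1.41), and 2 of 5595 promoter peaks did (0.0357%). Within 1 kb of the centre there were 2.52 region midpoints per Mb (interval 0.305 to 9.10), and 1 to 2 kb away 6.30 (2.04 to 14.7), where the whole genome has 14.1. The density was 10.5 (6.79 to 15.5) at 2 to 5 kb, 10.6 (7.62 to 14.3) at 5 to 10 kb, 11.8 (9.57 to 14.5) at 10 to 20 kb, 12.7 (11.3 to 14.2) at 20 to 50 kb and 14.0 (12.9 to 15.2) at 50 to 100 kb. For all distal peaks together the innermost interval lay wholly below the genome value and the others did not. Detached peaks alone also lay below it at 5 to 10 kb (8.40, interval 5.26 to 12.7), 10 to 20 kb (10.5, 7.91 to 13.7) and 20 to 50 kb (12.1, 10.4 to 13.9), where promoter-reaching peaks had 14.8 (9.05 to 22.9), 14.4 (10.3 to 19.7) and 13.8 (11.4 to 16.6). The intervals of the 2 sets overlapped at each of these distances. Windows of neighbouring peaks were not merged, so a region near several peaks was counted for each. The density intervals are therefore too narrow, and values just below the genome level are not read further. Promoter peaks had 1.79 (1.09 to 2.76) within 1 kb and 11.5 (11.2 to 11.8) at 50 to 100 kb, below both the genome and the distal peaks at that distance. Promoter-reaching peaks had no region midpoint within 2 kb, where 0.270 Mb was scanned in each of the 2 steps and a count of 0 allows up to 13.7 per Mb. The median distance to the nearest region was 30759 bp (27340 to 34738) from distal and 36271 bp (34945 to 37677) from promoter peaks.

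**Figure D5:**
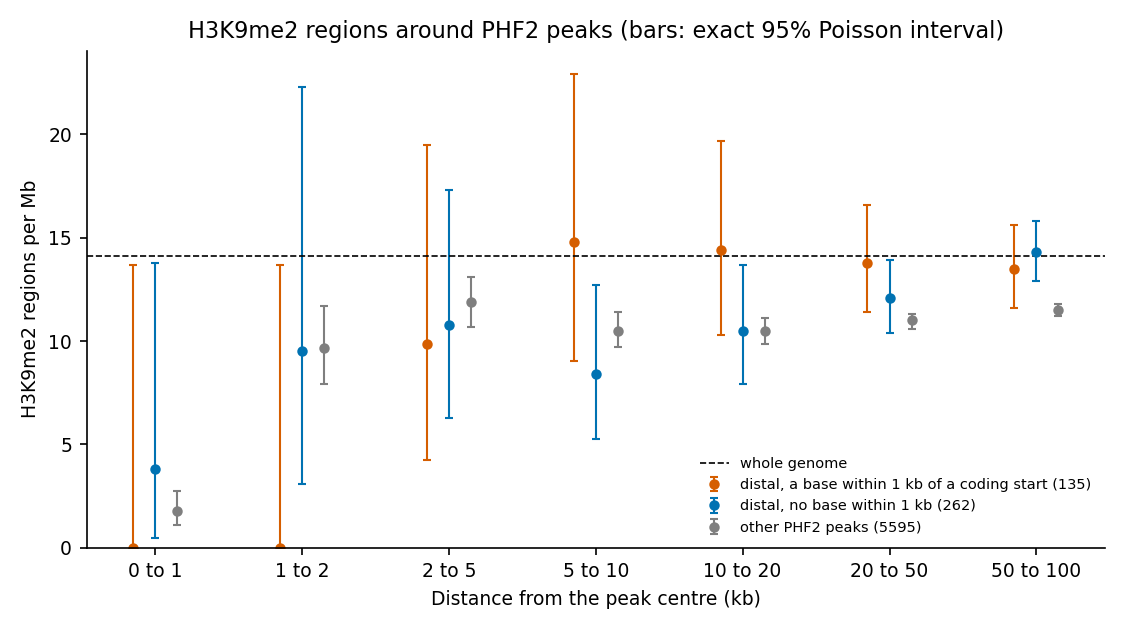
H3K9me2 region midpoints per Mb (vertical axis) in steps of distance from the peak centre in kb (horizontal axis) for promoter-reaching, detached and promoter peaks (labelled other PHF2 peaks), with exact 95% Poisson intervals; the dashed line is the genome value of 14.1. Within 1 kb the values are 0, 3.82 and 1.79 per Mb, promoter-reaching peaks are at 0 from 1 to 2 kb as well, and detached peaks return to 14.3 at 50 to 100 kb.

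The 6 peaks with a region within 1 kb of their edges were all detached, with scores from 119.93 to 396.30. The overlap was in an intron of 4931414P19Rik, where the region at 54602730 to 54602826 of chromosome 14, 97 bp long, met the edge of the peak at 54602795. The others were peaks at the start of Gm7461 near Zfp958 (154.93, gap 328 bp), at Snhg7os near Fam69b (340.73, 486 bp), in an exon of Sf3b5 (119.93, 879 bp), at 2610035D17Rik (396.30, 888 bp) and an intergenic peak beside the long Spry2 peak (307.86, 921 bp). Their share was 1.51% of distal peaks (interval 0.694 to 3.26) and 1.59% in promoter peaks (1.29 to 1.95), a difference of -0.0794 percentage points (-0.973 to 1.69). The Sf3b5 centre lay 3336 bp from the GENCODE coding start and 229 bp from a curated RefSeq mRNA start. The 6 regions were 73 to 106 bp long. In the deposited list 55.6% of regions have the shortest length, 73 bp.

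Another annotation put some of these peaks at coding starts. A RefSeq mRNA start lay within 1 kb of the centre of 95 distal peaks (23.9%, interval 20.0 to 28.4), 43 of them detached, and a curated RefSeq mRNA start in 47 (11.8%). At Adgrl2 (2665.21) and Bahcc1 (2356.02) a RefSeq mRNA start outside the curated set lay 1 and 557 bp from the centre, while no RefSeq mRNA start lay within 1 kb at Malat1, Mir9-1 or Mir125b-1. Zswim6, a processed transcript in the annotation used, had a RefSeq mRNA start 1249 bp from the centre of its peak (1118.41). With every GENCODE transcript and every RefSeq mRNA counted, 150 of the 397 peaks, 94 of them detached, had no start within 1 kb.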

How the data were processed

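Per the file headers, the deposited PHF2 list with its 1 score per peak is the authors' MACS output from Galaxy. The submitters' processing notes name Bowtie2 and mm10, without their roles. Not given in the sources used here are the MACS version, its control and settings, the scale of the score, and what called the H3K9me2 regions. The score was used only to rank or filter peaks within its list. Inputs were not used here.

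Peak positions were set against GENCODE M21 and the GRCm38.p6 sequence (the mm10 assembly) with Python 3.11.15, pandas 2.3.3, scipy 1.17.1 and pysam 0.24.0, and 60 H3K9me2 regions on scaffolds were left out. A centre was placed in the topmost class that held it, in the order noncoding gene start, noncoding transcript start, exon, intron, noncoding body, intergenic. Shares carry Wilson, differences Newcombe, medians order-statistic and densities exact Poisson intervals. The code was tested on simulated data. Alternatives varied the distance limit, transcripts, windows, score and regions used.

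Peaks to be named were set by a rule. It took the 20 highest scores, the 5 highest of each class, the 5 farthest and those next to H3K9me2. It also took the extremes of CpG content and length, those at the limit, and up to 4 per gene list. Not every peak under the rule is named above. Phlda1, Rnd3 and Rassf3, of the 20 highest scores, and Srgap2, the longest, were left out, and such omissions followed no rule. Other noncoding RNA and list genes were named after their values were seen. The peak with the lowest CpG content is not reported here. Members and lists were chosen with earlier results of these data known.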

Additional observations from a re-analysis of the deposited data

How the results depend on the processing

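With a limit of 2 kb or 5 kb in place of 1 kb, 251 or 201 peaks were distal, with median scores of 203 and 200 and median lengths of 1265 and 1236 bp. With no base allowed within 1 kb, 262 peaks remained, with a median score of 196 and length of 1233 bp. In that set, an alternative added after seeing the data for class and gene shares, noncoding gene starts held 48.1%, exons 6.49% and introns 8.40%, and 50.8% had a nearest coding gene with another PHF2 peak at a start. For all 397 distal peaks that last share was 40.3% with 1 kb as the limit at the start and 31.5% with 500 bp. Counting every transcript of coding genes gave 333 distal peaks, GENCODE basic transcripts 445, and RefSeq starts, added after seeing the data, 302 or, if curated, 350.

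Taking noncoding starts within 500 bp or 2 kb moved noncoding gene starts to 30.0% or 45.6%, noncoding transcript starts to 9.32% or 19.6%, introns to 21.2% or 9.82% and noncoding bodies to 7.56% or 2.52%. Intergenic peaks were 11.2% at scores of at least 200. CpG observed/expected was 0.754 in the central 200 bp and 0.735 in 500 bp. The strict island limits gave 79.3%. An H3K9me2 region above the shortest length lay within 10 kb of 7.30% of distal peaks, against 16.9% with all regions. The causes of these moves were not tested, beyond the smaller sets each setting makes. Of 64 alternatives 37 stayed within the interval or 1.5 times the count reported, and of 24 for motif windows 9 did. The unknown read depth limits how far a missing peak or region can be read. No paired analysis was possible because the results come from no test between samples.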
